A study of Mus musculus with 20 samples.

Results

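The 4 genes of calcium/calmodulin-dependent protein kinase II, Camk2a, Camk2b, Camk2d and Camk2g, were followed through 20 RNA-seq libraries of mouse embryonic hearts in which the histone methyltransferase gene Kmt2d had been deleted by 1 of 3 Cre drivers. They were taken by symbol and are 4 of the 33495 genes in the deposited count table. Each symbol had 1 row, so the values are per gene and do not separate splice variants.

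All embryos were of the C57BL/6 strain. Mutants carried a Cre driver, 2 floxed Kmt2d alleles and 1 copy of the mTmG membrane reporter (Cre; Kmt2d fl/fl; mTmG/+). Controls carried the same driver and reporter with 1 floxed and 1 wild-type allele (Cre; Kmt2d fl/+; mTmG/+), so they were heterozygous for the deletion in the cells that express Cre. Mesp1Cre, active in early mesoderm, was sampled as whole hearts at E9.0 with 4 mutant and 4 control libraries. Tnnt2::Cre, active in cardiomyocytes, was sampled as whole hearts at E11.5 with 3 and 3. Mef2cAHF::Cre, active in precursors of the anterior heart field, was sampled as right ventricle and outflow tract at E11.5 with 3 and 3. Whole tissue was used, so the cells that kept Kmt2d contribute to every library, and fewer cells of a type and less RNA per cell cannot be told apart. The 3 lines also differ in stage, in tissue or in sequencing group, and the effect of the driver cannot be told apart from these.

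The genotypes of Mef2cAHF::Cre are given in conflicting ways. The sample titles and genotype labels call 3 libraries mutant that the table's column names call wild type, and the other 3 the reverse. Below, these libraries are called labelled mutant and labelled control after the titles. Under the column names every difference within this line keeps its size and takes the opposite sign, and both readings are given.

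CaMKII is a serine/threonine kinase that is switched on by calcium-loaded calmodulin. Its subunits, encoded by the 4 genes, assemble into mixed ring-shaped holoenzymes, and phosphorylation between neighbouring subunits keeps the kinase active after calcium has fallen. The alpha and beta subunits are best known from neurons, where alpha is needed for synaptic plasticity. The delta subunit is the main form of the adult heart, with gamma beside it, and it phosphorylates calcium-handling proteins such as the ryanodine receptor and phospholamban. Camk2a also gives rise to alphaKAP, a muscle protein that lacks the kinase domain and anchors CaMKII to membranes. The gene counts cannot separate it from the alpha kinase.

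In mm9 coordinates, Camk2a (ENSMUSG00000024617) lies on the plus strand at chr18:61085272-61147806, Camk2b (ENSMUSG00000057897) on the minus strand at chr11:5869647-5966365, Camk2d (ENSMUSG00000053819) on the plus strand at chr3:126299220-126547972, and Camk2g (ENSMUSG00000021820) on the minus strand at chr14:21554105-21613252. In the GENCODE M1 annotation of the same build no exon of the 4 overlapped an exon of another gene on either strand. The protein-coding transcripts of the 4 genes shared no stretch of 50 bases with each other. With transcripts of other genes, 6 of the 5743 stretches of Camk2a were shared and none of the other 3 genes.

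Total counts per library were 21727258 to 24981332 in Mesp1Cre mutants and 25581534 to 28790705 in their controls, which did not overlap. They were 28122321 to 37165163 and 25001020 to 27568922 in Mef2cAHF::Cre labelled mutants and labelled controls, and 35379996 to 44165532 and 36809972 to 45341870 in Tnnt2::Cre mutants and controls. Kmt2d, listed under its older symbol Mll2, stood at 128.1, 144.1, 142 and 132.9 CPM (counts scaled to the library total) in Mesp1Cre mutants and at 163.9, 156.3, 160.7 and 151.7 in controls. The Tnnt2::Cre libraries had 107.1, 113.1 and 116.3 CPM in mutants and 158.7, 149.5 and 119.2 in controls. In Mef2cAHF::Cre it stood at 187.4, 188.8 and 193.9 in libraries labelled mutant and at 145.8, 155.7 and 156.2 in those labelled control, a log2 difference of 0.32 ± 0.06 (SE; FDR = 0.0359) towards the labelled mutants. In Mesp1Cre and Tnnt2::Cre the mutants lay below the controls without overlap, with log2 differences of -0.21 (FDR = 0.0764) and -0.35 (FDR = 0.327) that missed the threshold. Counts cover the whole gene, and exons outside the deleted part still give reads.

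Each library yielded 6113 to 11570 counts over the 4 Camk2 genes. In Mesp1Cre controls Camk2d held 48.0 ± 1.63% of these counts (mean ± SD, n = 4), Camk2a 33.8 ± 0.83%, Camk2g 17.0 ± 0.79% and Camk2b 1.16 ± 0.21%. In Tnnt2::Cre controls the shares were 58.7 ± 1.70%, 26.4 ± 1.06%, 14.1 ± 0.66% and 0.85 ± 0.15% in the same order (n = 3). Camk2d had the most counts and Camk2b the fewest in all 20 libraries. Because longer transcripts give more counts, these shares serve only to compare libraries.

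Between genes, levels were compared as FPKM, the deposited unit that divides fragments by gene length and library total. By FPKM, Camk2g, Camk2a and Camk2d lay close together in Mesp1Cre controls, at 12.0 ± 0.78, 11.7 ± 0.51 and 9.28 ± 0.65 (n = 4), and Camk2b stood at 0.33 ± 0.06. In Tnnt2::Cre controls Camk2d led at 10.9 ± 0.35, before Camk2g at 9.56 ± 0.71 and Camk2a at 8.73 ± 0.68 (n = 3), with Camk2b at 0.23 ± 0.05. The FPKM values divide by the length of all annotated exons joined, which is 13325 bases for Camk2d, 7465 for Camk2a, 9129 for Camk2b and 3637 for Camk2g. Divided instead by the longest annotated transcript, 4388 bases for Camk2d and 4970 for Camk2a, Camk2d exceeded Camk2a in all 20 libraries. The order of the 3 abundant genes therefore depended on the length used, whereas Camk2b was lowest under both.

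Camk2a differed between genotypes in every line. In Mesp1Cre it stood at 60.0, 43.5, 74.5 and 63.4 CPM in the mutants and at 93.3, 98.9, 85.2 and 91.1 in the controls. All mutant libraries lay below all controls, and the gene fell by 0.61 on the log2 scale (SE 0.14; 95% CI -0.90 to -0.32; FDR = 0.0127), to 0.655 of the control level. In Tnnt2::Cre it stood at 31.6, 33.4 and 38.2 CPM in mutants and at 71.4, 62.3 and 69.8 in controls. Again the groups did not overlap, and Camk2a fell by 0.98 (SE 0.11; 95% CI -1.22 to -0.74; FDR = 0.0113), to 0.507 of the control level. The Tnnt2::Cre call was lost without control replicate 1 (FDR = 0.0796) and without control replicate 3 (FDR = 0.0933). The log2 difference stayed between -1.06 and -0.92 whichever library was left out. In those fits the calls over all genes fell from 50 to 14 and 4. Both calls held with DESeq2 (FDR = 0.000305 in Mesp1Cre and 5.65e-11 in Tnnt2::Cre) and in a fit over all 6 groups (FDR = 0.00161 and 0.00196). On log2(FPKM + 0.1), tested with limma, neither call held, at -0.47 in Mesp1Cre (FDR = 0.112) and -0.85 in Tnnt2::Cre (FDR = 0.191). On this scale the median of all genes was 0.15 and 0.11, and 1466 of 22271 and 4 of 21702 genes passed.

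In Mef2cAHF::Cre, Camk2a stood at 87.7, 91.8 and 87.5 CPM in libraries labelled mutant and at 33.7, 29.2 and 39.6 in those labelled control. By the titles Camk2a was 2.61 times higher in the mutants, a log2 difference of 1.38 (SE 0.11; 95% CI 1.14 to 1.62; FDR = 0.000697). By the column names it was lower in the mutants, at 0.384 of the control level, a log2 difference of -1.38. Under the titles the direction was opposite to that of the other lines, and under the column names it was the same.

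Camk2d moved differently. In Mesp1Cre it stood at 200.4, 161.5, 213.5 and 172.1 CPM in mutants and at 122.9, 140.9, 121.0 and 138.4 in controls. All mutants were above all controls, and Camk2d rose by 0.51 on the log2 scale (SE 0.10; 95% CI 0.30 to 0.73; FDR = 0.00537), or 1.43-fold. In Tnnt2::Cre it stood at 156.2, 212.6 and 199.1 CPM in mutants and at 147.2, 145.6 and 160.7 in controls, a log2 difference of 0.32 (SE 0.13; 95% CI 0.04 to 0.61; FDR = 0.366) that did not pass the threshold. The mutant library at 156.2 CPM, replicate 1, lay within the range of the controls. Without it the difference was 0.44 and passed (FDR = 0.039), but leaving out the mutant nearest the controls widens a difference by itself. In that fit the calls over all genes rose from 50 to 896. Without any other single library the difference did not pass (FDR = 0.408 to 0.751). In Mef2cAHF::Cre the values were 166.5, 154.1 and 155.7 CPM in libraries labelled mutant and 166.1, 166.1 and 156.0 in those labelled control. The groups overlapped, and the interval of the log2 difference ran from -0.19 to 0.11 by the titles (FDR = 0.839).

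Camk2g, the other subunit of the heart muscle, stood at 39.9, 33.6, 34.8 and 39.0 CPM in Mesp1Cre mutants and at 48.5, 50.1, 41.4 and 45.5 in controls. The groups did not overlap, but the log2 difference of -0.33 (SE 0.11; 95% CI -0.56 to -0.10) missed the threshold (FDR = 0.0634). It passed with DESeq2 (FDR = 0.0216) and in a fit over all 6 groups (FDR = 0.0107). It did not pass without any single library (FDR = 0.0537 to 0.145), or on log2(FPKM + 0.1) and log2(FPKM + 1), where the difference was -0.17 (FDR = 0.346) and -0.16 (FDR = 0.34). In Mef2cAHF::Cre, Camk2g ranged from 43.4 to 49.5 CPM in libraries labelled mutant and from 39.9 to 47.8 in those labelled control, with a log2 difference of 0.05 (95% CI -0.15 to 0.26; FDR = 0.811). Tnnt2::Cre libraries ranged from 34.4 to 41.3 CPM in mutants and from 34.0 to 38.3 in controls, with a log2 difference of 0.05 (95% CI -0.19 to 0.28; FDR = 0.902). In both lines at E11.5 the groups overlapped.

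Camk2b was near the lower end of what these libraries measured, with 23 to 135 counts per library. In Mef2cAHF::Cre it stood at 2.44, 2.71 and 3.74 CPM in libraries labelled mutant and at 1.71, 0.83 and 1.04 in those labelled control. The groups did not overlap, and the log2 difference of 1.31 by the titles and -1.31 by the column names (SE 0.31; FDR = 0.0598) missed the threshold. It passed with DESeq2 (FDR = 0.00841), with all genes of at least 1 count kept (FDR = 0.00354) and without labelled control replicate 1, at a log2 difference of 1.67 (FDR = 0.0308). It did not pass in the 6-group fit (FDR = 0.102), without any other single library (FDR = 0.0854 to 0.185), or on log2(FPKM + 0.1) and log2(FPKM + 1), where the difference shrank to 0.80 (FDR = 0.269) and 0.205 (FDR = 0.247). In Mesp1Cre it stood at 2.53 to 5.25 CPM in mutants and 2.47 to 3.69 in controls (log2 difference 0.10, 95% CI -0.59 to 0.79, FDR = 0.882). In Tnnt2::Cre it stood at 1.06 to 1.86 CPM in mutants and 1.66 to 2.62 in controls (log2 difference -0.66, 95% CI -1.33 to 0.02, FDR = 0.429).

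**Figure D1:**
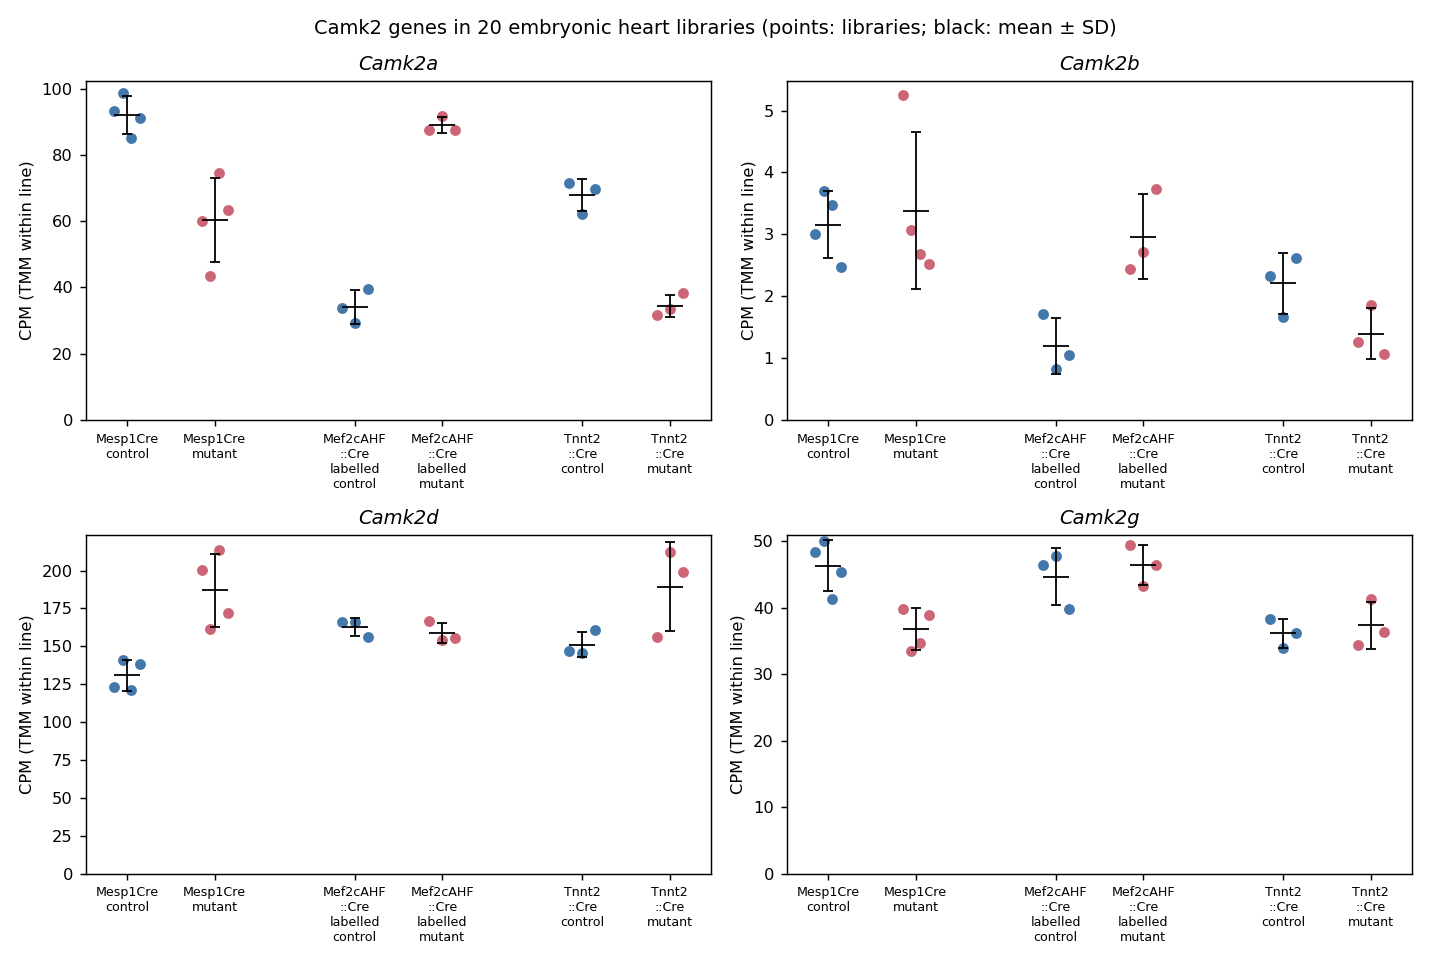
CPM of each Camk2 gene (vertical axis, from 0, with its own scale per gene) in the 6 groups of libraries; points are libraries, blue for controls and red for mutants, and black marks give mean ± SD. Camk2a in Mesp1Cre and Tnnt2::Cre lies lower in mutants, from 43.5 to 74.5 against 85.2 to 98.9 and from 31.6 to 38.2 against 62.3 to 71.4, while in Mef2cAHF::Cre the labelled mutants are the higher group.

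In Mesp1Cre 1 of the 4 genes passed as higher in mutants and 1 as lower, where 6.17% and 5.29% of the 15883 tested genes did. In Mef2cAHF::Cre 1 of the 4 passed as higher in labelled mutants and none as lower, against 1.81% and 1.04% of 16920 genes. In Tnnt2::Cre none passed as higher and 1 as lower, against 0.0763% and 0.217% of 17045 genes. The groups did not overlap for 3, 2 and 1 of the 4 genes in the same order of lines, against 17.7%, 24.0% and 17.1% of all tested genes.

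**Figure D2:**
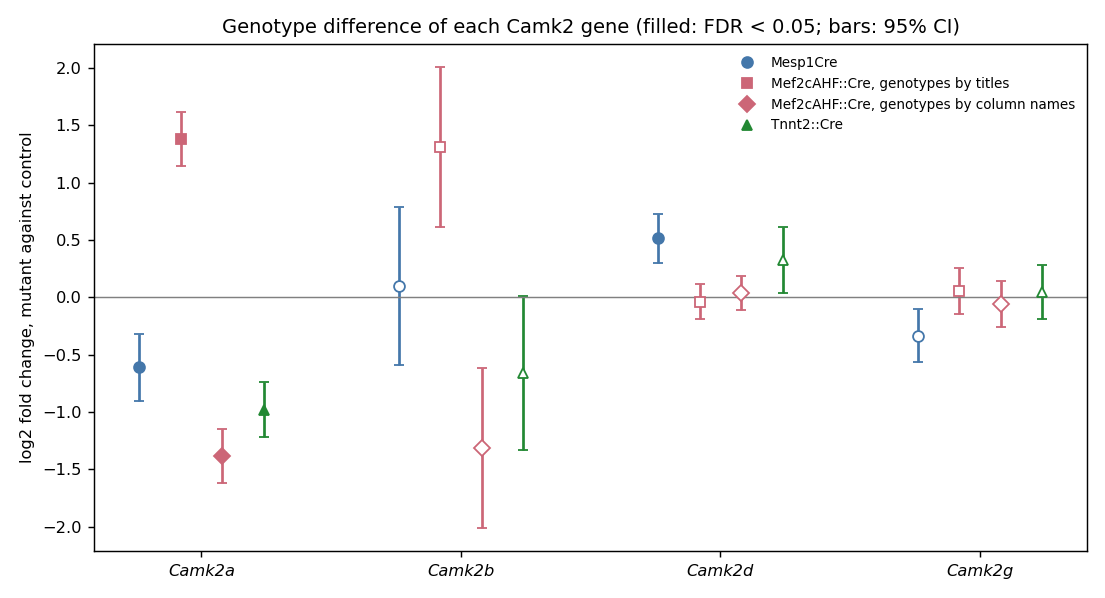
Log2 fold change of each Camk2 gene, mutant against control (vertical axis), with 95% confidence intervals as bars; symbols stand for the lines, Mef2cAHF::Cre is drawn under both readings of its genotypes, and filled symbols passed FDR < 0.05. Camk2a is filled in every line, and Camk2d in Mesp1Cre.

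The shares of the genes in the summed Camk2 counts were compared next. The shares of a library add up to the whole, so a change in a single gene moves the shares of the others. No share or sum passed after adjustment, and with so few libraries none could, with 4 against 4 or with 3 against 3. In Mesp1Cre, Camk2a held 20.9 ± 2.44% of the Camk2 counts in mutants against 33.8 ± 0.83% in controls (n = 4 each), and Camk2d held 65.0 ± 2.03% against 48.0 ± 1.63%. Camk2g held 12.9 ± 1.56% against 17.0 ± 0.79%, and for these 3 shares the groups did not overlap (exact permutation test, two-sided, p = 0.0286 each, the smallest that 4 against 4 allows; 0.136 adjusted over 15 values). The summed CPM of the family was 287.4 ± 36.4 in mutants and 272.4 ± 17.8 in controls, which overlapped (exact permutation p = 0.486, adjusted 0.607).

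In Tnnt2::Cre, Camk2a held 13.2 ± 1.43% in mutants against 26.4 ± 1.06% in controls, and Camk2d 72.0 ± 1.86% against 58.7 ± 1.70% (n = 3 each). Neither share overlapped between groups, nor did that of Camk2b, at 0.53 ± 0.13% against 0.85 ± 0.15% (exact permutation p = 0.1 each, two-sided, the smallest that 3 against 3 allows; adjusted 0.136). The share of Camk2g was 14.3 ± 1.09% and 14.1 ± 0.66%, and the summed CPM 262.5 ± 34.6 and 257.4 ± 13.0; both overlapped (exact permutation p = 0.8 and 0.9, adjusted 0.914).

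In Mef2cAHF::Cre, Camk2a held 30.0 ± 1.41% in libraries labelled mutant and 14.1 ± 2.43% in those labelled control, and Camk2d 53.4 ± 0.87% and 67.0 ± 1.07% (n = 3 each). Camk2g held 15.6 ± 0.69% and 18.4 ± 1.40%, and Camk2b 1.00 ± 0.25% and 0.49 ± 0.18%. The summed CPM was 297.1 ± 7.76 in labelled mutants and 242.8 ± 5.80 in labelled controls. None of these 5 values overlapped between groups (exact permutation p = 0.1 each, adjusted 0.136), and under the column names the mutants are the group with the low Camk2a share and the low sum. As CPM, Camk2d and Camk2g overlapped between these groups (FDR = 0.839 and 0.811), and Camk2a stood at 89.0 ± 2.43 and 34.2 ± 5.22. The 5 values are therefore not separate results, and which group is the mutants depends on the label used.

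**Figure D3:**
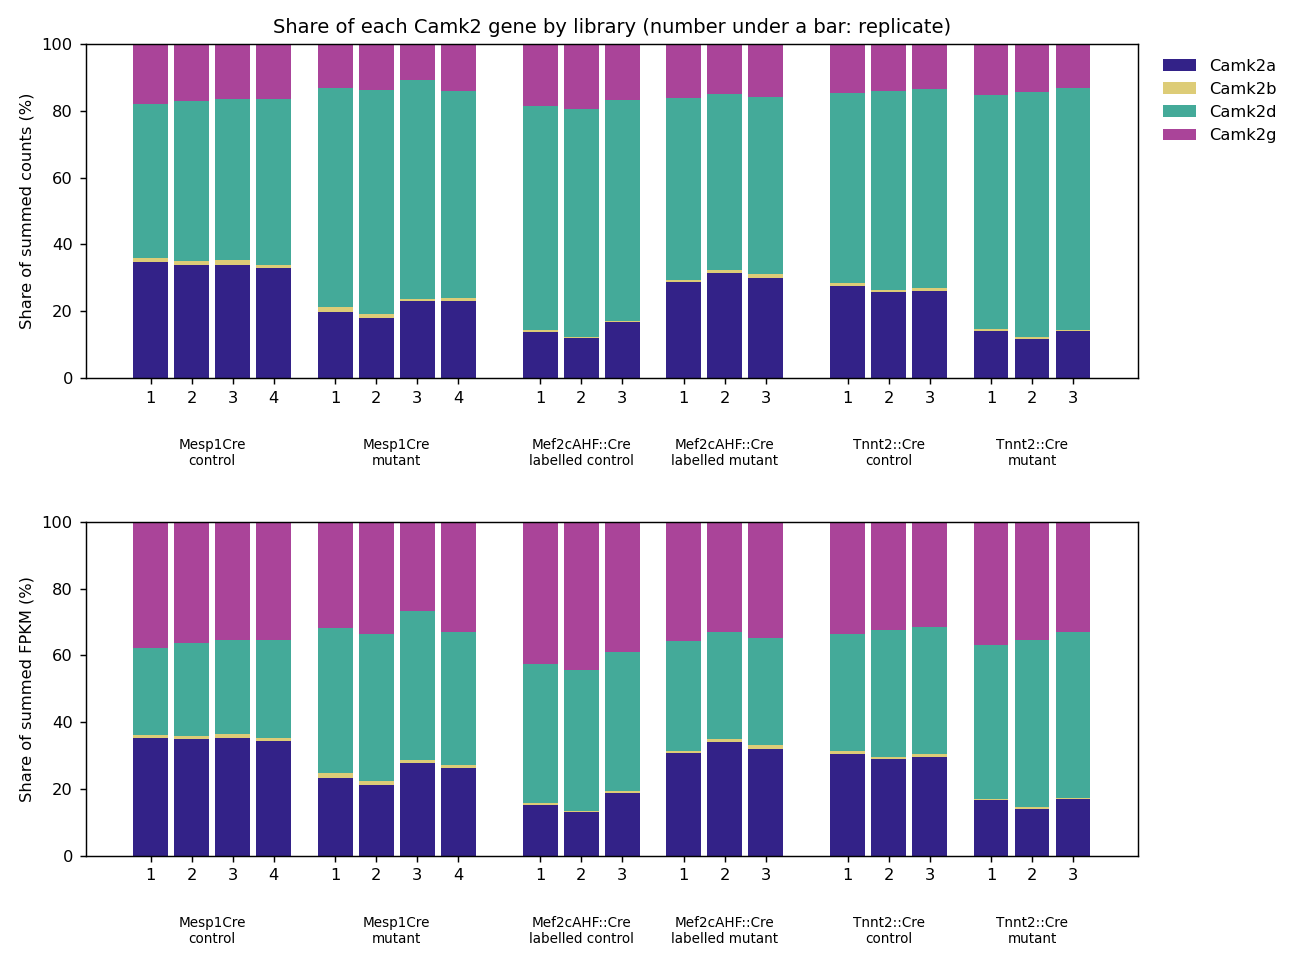
Share of each Camk2 gene in the summed counts (upper panel) and in the summed FPKM (lower panel) of the family, in percent, as stacked bars for each of the 20 libraries; the number under a bar is the replicate. Camk2a takes 33.8% of counts in Mesp1Cre controls and 20.9% in mutants, 26.4% and 13.2% in Tnnt2::Cre, and 14.1% and 30.0% in Mef2cAHF::Cre labelled controls and labelled mutants.

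The ratio of Camk2a to Camk2d by FPKM took both genes together. Both had passed the threshold only in Mesp1Cre, so in the other lines the ratio mostly restated Camk2a. In Mesp1Cre it was 1.36, 1.25, 1.26 and 1.18 in controls and 0.534, 0.481, 0.623 and 0.658 in mutants. The alpha gene thus exceeded the delta gene in all 4 controls and in no mutant on this scale. In Tnnt2::Cre the ratio was 0.866, 0.764 and 0.775 in controls and 0.361, 0.281 and 0.343 in mutants. In Mef2cAHF::Cre it was 0.940, 1.06 and 1.00 in libraries labelled mutant and 0.363, 0.313 and 0.453 in those labelled control. Per base of the longest transcript the ratio was below 1 in all 20 libraries, and the gap between groups was the same in proportion, since a change of length moves all libraries alike.

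**Figure D4:**
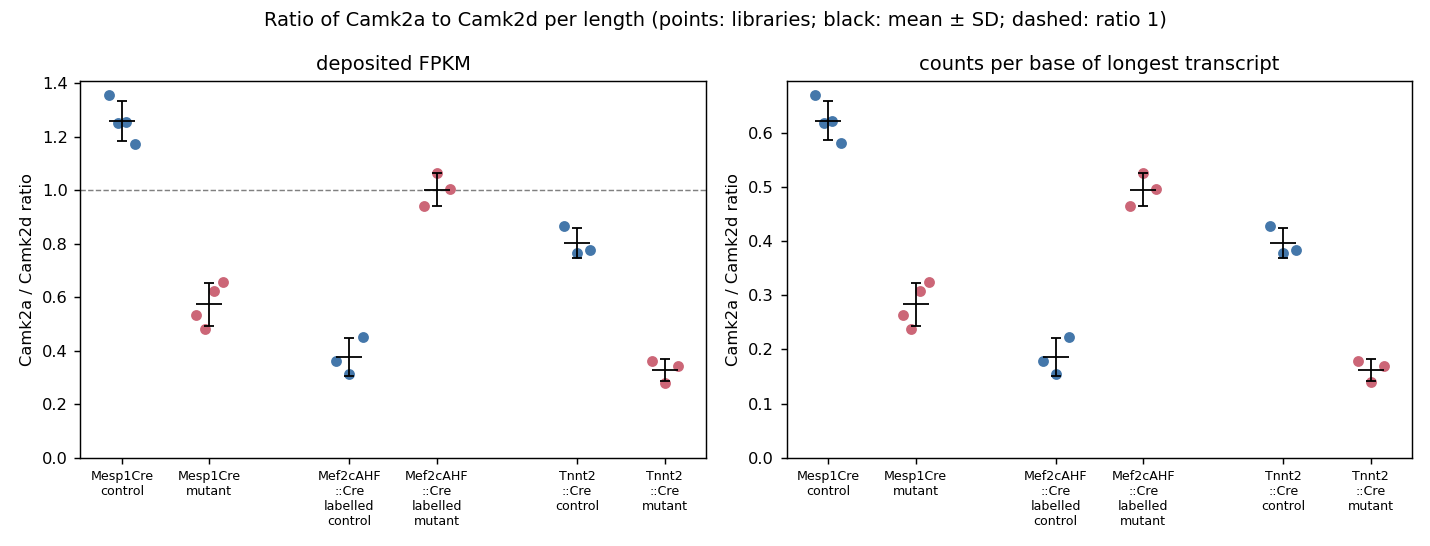
Ratio of Camk2a to Camk2d (vertical axis, from 0) by deposited FPKM (left) and by counts per base of the longest transcript (right); points are libraries, blue for controls and red for mutants, and black marks give mean ± SD. In every line the groups do not overlap; in the left panel the Mesp1Cre controls lie above 1, from 1.18 to 1.36, the Mef2cAHF::Cre labelled mutants lie on both sides of it, from 0.940 to 1.06, and all other groups lie below, while in the right panel every library is below 1.

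Whether the genotype difference of a gene differed between lines was tested in 1 fit over all 6 groups. By the titles, the Camk2a difference in Mef2cAHF::Cre exceeded that in Tnnt2::Cre by 2.36 log2 units, with an SE of 0.20 (FDR = 5.55e-07). It exceeded that in Mesp1Cre by 2.01, with an SE of 0.19 (FDR = 2.18e-06). In these interactions 3.19% and 11.3% of 18391 genes passed. By the column names the gap to Tnnt2::Cre was -0.40 (95% CI -0.81 to 0.02; FDR = 1), in an interaction in which 0.00% of genes passed (edgeR found 0 genes, and 472 at an unadjusted p under 0.05; DESeq2 called 2). The gap to Mesp1Cre was -0.75 (SE 0.19; FDR = 0.0456), where 1.63% of genes passed. The Mesp1Cre and Tnnt2::Cre differences of Camk2a, which no label conflict touches, were 0.35 apart (95% CI -0.03 to 0.74; FDR = 0.315), with 3.04% of genes past the threshold.

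Of the other members, Camk2b differed between Mef2cAHF::Cre by the titles and Tnnt2::Cre by 1.97 (SE 0.48; FDR = 0.0283), and by -0.64 under the column names (95% CI -1.65 to 0.36; FDR = 1). Camk2d differed between Mef2cAHF::Cre and Mesp1Cre by -0.53 by the titles (SE 0.15; FDR = 0.0209) and by -0.46 under the column names (FDR = 0.112). For Camk2d the sign was thus the same under both readings, and the call was not. Camk2g passed in no interaction, the nearest being Mef2cAHF::Cre against Mesp1Cre at 0.41 by the titles (FDR = 0.0614), which passed with DESeq2 (FDR = 0.0446).

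Across the 6 groups, on a scale normalised over all 20 libraries, Camk2a was highest in Mesp1Cre controls at 90.8 ± 5.63 CPM (n = 4) and in Mef2cAHF::Cre labelled mutants at 86.8 ± 2.26 (n = 3), which overlapped. Next came Tnnt2::Cre controls at 71.4 ± 5.37 and Mesp1Cre mutants at 58.8 ± 12.4, which overlapped with each other. The lowest were Tnnt2::Cre mutants at 36.2 ± 3.50 and Mef2cAHF::Cre labelled controls at 33.4 ± 5.13, which also overlapped. The labelled controls of Mef2cAHF::Cre thus lay beside the mutants of Tnnt2::Cre. For Camk2d the order ran from Tnnt2::Cre mutants at 198.7 ± 29.6 to Mesp1Cre controls at 129.0 ± 10.1, and only the last step, from Mef2cAHF::Cre labelled mutants at 154.9 ± 6.51, had no overlap. For Camk2b, from 3.30 ± 1.26 in Mesp1Cre mutants to 1.17 ± 0.45 in Mef2cAHF::Cre labelled controls, and Camk2g, from 45.7 ± 3.85 in Mesp1Cre controls to 35.8 ± 3.09 in Mesp1Cre mutants, every pair of neighbours overlapped.

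Between controls, Tnnt2::Cre hearts at E11.5 had less Camk2a (log2 difference -0.35, SE 0.13, FDR = 0.0421) and less Camk2g (-0.26, SE 0.10, FDR = 0.0362) and more Camk2d (0.30, SE 0.10, FDR = 0.0232) than Mesp1Cre hearts at E9.0. The Camk2g call was lost with all genes of at least 1 count kept (FDR = 0.0932), and 39.6% of genes passed in this comparison of lines that also differ in stage. Against Tnnt2::Cre controls, Mef2cAHF::Cre controls by the titles had less Camk2a (-1.10, SE 0.14, FDR = 1.07e-05) and less Camk2b (-0.99, SE 0.35, FDR = 0.0371), where 29.4% of genes passed. The Camk2b call was lost with all genes of at least 1 count kept (FDR = 0.064). By the column names no Camk2 gene passed, where 21.4% of genes did, and Camk2a differed by 0.28 (95% CI -0.01 to 0.57; FDR = 0.167).

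Marker genes of other cell types moved with some of these groups. The summed CPM of 9 erythroid genes was 1958 to 7673 in Mesp1Cre mutants and 5520 to 18150 in controls, and 5 of the 9 were lower. In Tnnt2::Cre it was 123500, 18180 and 41380 in mutant replicates 1, 2 and 3 and 96770 to 151400 in controls, with none of the 9 past the threshold. The mutant replicate with the control-like erythroid sum is the one with the control-like Camk2d level, and its Camk2a level of 31.6 CPM was the lowest of the line. In Mef2cAHF::Cre the sum was 25290 to 47920 in labelled mutants and 7367 to 32650 in labelled controls, with 1 of 9 higher. Hemoglobin and mitochondrial genes were also left out of the normalisation. The calls of all 4 genes in all 3 lines then stayed on the same side of the threshold. That step acts on the scaling of the libraries and cannot show what blood cells contribute. The part of erythroid RNA in the Camk2 differences was not tested.

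The summed CPM of 10 cardiomyocyte genes was 39730 to 50830 in Mesp1Cre mutants and 30080 to 38140 in controls, which did not overlap, and 2 of the 10 were higher. Most of this sum was Ttn, at 32596 ± 4767 CPM in mutants and 21930 ± 3302 in controls. The median log2 difference of the 10 genes was 0.06, and Myh6, Myl2, Nppa and Nkx2-5 had lower means in mutants, the others higher ones. Camk2d rose in the same mutants and Camk2a fell, and the part of cardiomyocyte RNA in either was not tested. In the other lines the cardiomyocyte sums overlapped, at 25190 to 30990 and 21070 to 27100 in Mef2cAHF::Cre and 19180 to 23810 and 17430 to 21750 in Tnnt2::Cre. Neural genes, 8 in the list, summed to 8.14 to 30.7 CPM over all libraries, less than Camk2a alone in each group, and 1 of the 5 tested in Mesp1Cre was higher in mutants. Of the skeletal muscle genes, Myod1 was at 0 in Mesp1Cre libraries, and Acta1, which embryonic heart also expresses, is in the same list. In Tnnt2::Cre the 4 skeletal muscle genes summed to 148.9 to 196.1 CPM in mutants and 99.97 to 142.8 in controls, with none past the threshold. The 7 endothelial genes summed to 537.3 to 633 CPM in Mesp1Cre mutants and 434.4 to 513.3 in controls, and 2 were higher. The 5 macrophage genes summed to 15.2 to 18 CPM in Mef2cAHF::Cre labelled mutants and 20.76 to 27.37 in labelled controls, with none past the threshold. These skeletal muscle, endothelial and macrophage sums did not overlap between the groups. The neural sums overlapped in every line, in Mesp1Cre at 17.19 to 30.74 CPM in mutants and 13.33 to 21.35 in controls. The part of any of these cell types in the Camk2 differences was not tested.

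The genes that act with CaMKII were read from a list of 51, of which 47 were tested. In Mesp1Cre 6 (12.8%) were higher and 7 (14.9%) lower in mutants, against 6.17% and 5.29% of all tested genes, with a median log2 difference over the 47 of 0.06 against -0.00182 over all genes tested. In Mef2cAHF::Cre 2 (4.26%) were higher and none lower in labelled mutants, against 1.81% and 1.04% (median 0.05 against -0.00671). In Tnnt2::Cre none was higher and 1 (2.13%) lower, against 0.0763% and 0.217% (median 0.02 against 0.00375). In Mesp1Cre the called members thus went both ways on counts, which the median does not show. With DESeq2, 8 were higher and 8 lower. On log2(FPKM + 0.1) 7 were higher and 1 lower, and on log2(FPKM + 1) 8 and 1. Most of the lower calls were thus absent with limma on these FPKM scales, where the median of all genes was 0.15 and 0.08. The cause was not tested. Without a replicate the Mesp1Cre counts ranged from 4 to 8 higher and from 5 to 7 lower, and the Tnnt2::Cre call was lost without mutant replicate 3 or any 1 control. In Mef2cAHF::Cre it ranged from 1 to 5 higher and 0 to 1 lower.

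Calm2 and Calm3 encode calmodulin, the calcium sensor that activates the kinase. In Mesp1Cre, Calm2 fell from 608.6 ± 33.4 CPM in controls to 456.5 ± 65.8 in mutants (n = 4 each; log2 difference -0.41, SE 0.10, FDR = 0.0154). Calm3 stood at 44.7 ± 7.37 in mutants and 50.9 ± 4.66 in controls (FDR = 0.371). Neither passed in the other lines, where log2 differences ran from -0.21 to 0.14. The inhibitors Camk2n1 and Camk2n2, which bind the active kinase, were low in every line, at 0.504 to 9.34 and 0.329 to 1.59 CPM, and neither passed in any line (FDR = 0.554 to 0.851 for Camk2n1 and 0.595 to 0.821 for Camk2n2).

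Among 9 phosphatases, which remove the phosphates that CaMKII adds or switch the kinase off, 1 was higher and 3 were lower in Mesp1Cre mutants. Ppm1f, a phosphatase that acts on CaMKII itself, fell from 28.0 ± 0.46 to 18.3 ± 1.49 CPM (log2 difference -0.61, SE 0.11, FDR = 0.00394). The protein phosphatase catalytic subunits Ppp1ca (-0.39, FDR = 0.0091) and Ppp2ca (-0.25, FDR = 0.0251) fell, and the calcineurin subunit Ppp3ca rose (0.42, FDR = 0.0121). None of the 9 passed in the other lines.

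Of 10 channels, pumps and receptors that CaMKII or its partners act on, 3 were higher and 1 was lower in Mesp1Cre mutants. Ryr2, the calcium release channel of the sarcoplasmic reticulum and also 1 of the cardiomyocyte markers, rose from 952.7 ± 129.8 to 1427 ± 230.6 CPM (log2 difference 0.58, SE 0.12, FDR = 0.00714). The L-type calcium channel gene Cacna1c (0.48, FDR = 0.0211) and the inositol trisphosphate receptor gene Itpr2 (0.53, FDR = 0.0451) also rose. Pln, which encodes phospholamban, the brake of the calcium pump, fell from 91.4 ± 8.17 to 48.3 ± 17.4 CPM (log2 difference -0.92, SE 0.20, FDR = 0.0118).

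In both lines at E11.5 the calls fell within these channels, pumps and receptors, and were of Hrc and Pln only. Hrc, the histidine-rich calcium-binding protein of the sarcoplasmic reticulum, stood at 73.9 ± 5.15 CPM in Mef2cAHF::Cre labelled mutants and 19.4 ± 3.22 in labelled controls (log2 difference 1.93 by the titles and -1.93 by the column names, SE 0.12, FDR = 0.00042). In Tnnt2::Cre it stood at 13.8 ± 2.76 in mutants and 32.0 ± 2.08 in controls (log2 difference -1.22, SE 0.15, FDR = 0.0179). That call was lost with a replicate block, on both FPKM scales, without mutant replicate 3 and without any single control. Pln stood at 428.2 ± 8.07 CPM in Mef2cAHF::Cre labelled mutants and 285.2 ± 42.3 in labelled controls (0.59 by the titles and -0.59 by the column names, FDR = 0.0243). Of the splicing regulators, Rbm20 (0.47, FDR = 0.0099), which controls splicing of Camk2d, and Rbm9, now named Rbfox2 (0.53, FDR = 0.00476), rose in Mesp1Cre mutants, and Sfrs1, now Srsf1, fell (-0.27, FDR = 0.0193). No anchoring protein, transcriptional target or other calmodulin-dependent kinase of the list passed in any line.

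**Figure D5:**
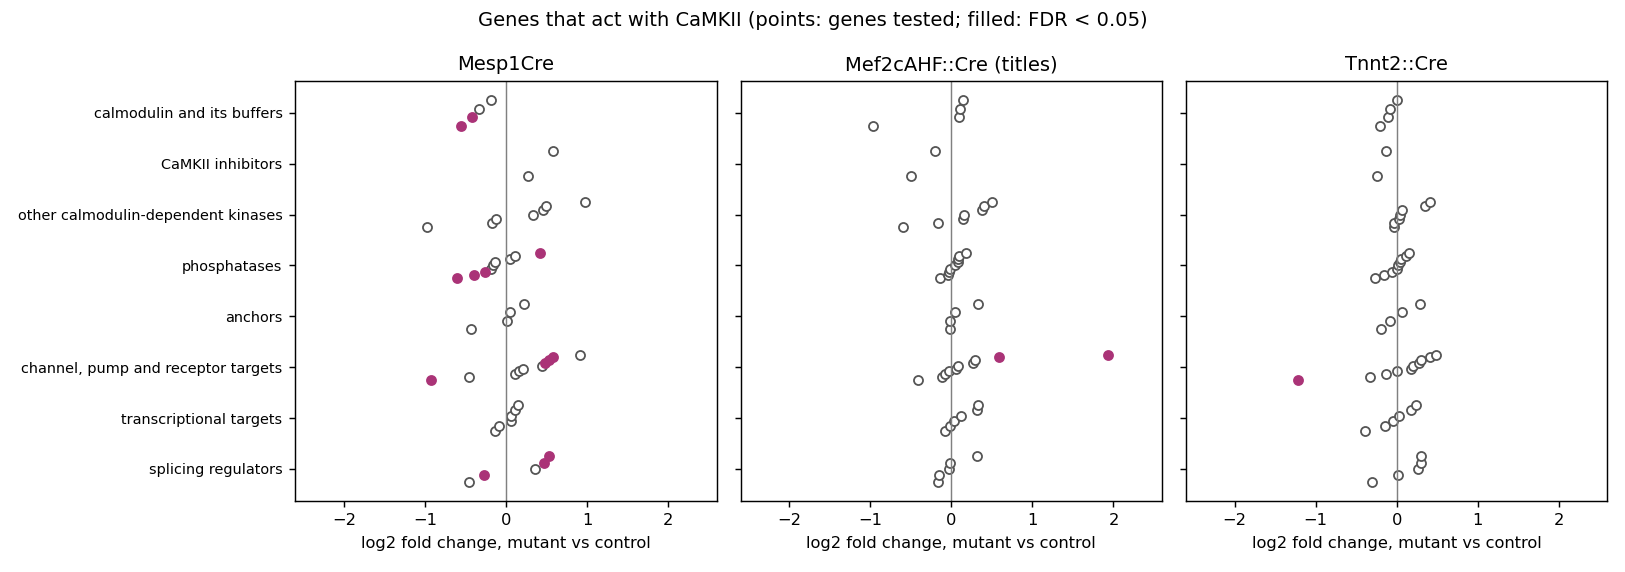
Log2 fold change, mutant against control (horizontal axis), of the 47 tested genes that act with CaMKII, in 8 groups by role (rows) and in the 3 lines (panels, Mef2cAHF::Cre by the titles); each point is a gene, and filled points passed FDR < 0.05. Of the filled points, 13 are in the Mesp1Cre panel, 2 in the Mef2cAHF::Cre panel and 1 in the Tnnt2::Cre panel.

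Genes were also ranked by how closely their log2 CPM followed each Camk2 gene over the 20 libraries after the mean of each line was removed. The libraries share their genotype groups, so r describes likeness only. Camk2a was followed most closely by Rtn4rl1, a Nogo receptor relative (r = 0.940), Des, the muscle intermediate filament desmin (0.937), Bcam, a laminin-binding adhesion molecule (0.926), Sgca, a sarcoglycan of the muscle membrane (0.924), and Hrc (0.921). Their direction in each line and their relative size over the lines follow largely from this choice. Sgca had log2 differences of -1.06 in Mesp1Cre, -2.77 in Tnnt2::Cre and 3.72 in Mef2cAHF::Cre by the titles. Camk2d was followed by Mical2, a redox enzyme acting on actin (0.962), the coronin Coro6 (0.940) and Dlc1, a GTPase-activating protein (0.939). Camk2b was followed by Hrc (0.823), Cmya5 (0.813) and the calcium channel subunit gene Cacna2d2 (0.803), and Camk2g by Fbxw17 (0.862), Uap1 (0.861) and Filip1 (0.854). Camk2a and Camk2d themselves had r = -0.429, so a gene this close to Camk2a could not be this close to Camk2d. Hrc was near both Camk2a and Camk2b. Its r with Camk2b was 0.355 within Mesp1Cre, against 0.915 in Mef2cAHF::Cre and 0.861 in Tnnt2::Cre.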

How the data were processed

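RNA-seq libraries were made by the authors from embryonic hearts of 3 Cre lines. Reads were aligned to mm9 (TopHat2 2.0.8b in the submitters' processing notes), and the deposited table holds raw counts per gene, from the authors' counting, and FPKM, which the authors' software scales by the length of a gene's joined exons and the library total. Whether counting used strand is not given in the sources used here. Another 20 columns of per-library values were not used. The table has 2 header lines, which disagree on the Mef2cAHF::Cre genotypes; groups follow the sample titles, and the column names are an alternative. The labels give E9.0 for Mesp1Cre, while a protocol text gives E11.5 for all.

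Counts were tested in each line with edgeR 4.0.16 (filterByExpr, TMM, quasi-likelihood test, R 4.3.3), adjusted by Benjamini-Hochberg over all tested genes, with FDR < 0.05 as threshold. CPM beside a line's test use that line's TMM factors. Interactions and controls were tested in 1 edgeR fit over 6 groups. SE is the log2 difference divided by the root of F. Shares were tested with exact permutation tests over libraries (scipy, two-sided), adjusted over 15 values. DESeq2 1.42.0 and limma 3.58.1 on log2(FPKM + 0.1) and log2(FPKM + 1) are alternatives. The edgeR script was tested on simulated data. Replicates were taken as labelled, and nothing says that each is 1 embryo, so p-values measure the spread between these libraries. No pair agreed within sampling noise (chi-square per degree of freedom 9.563 or more).

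The members and lists were chosen with earlier results of these data known. Named genes are the 4 members, Kmt2d, Calm2, Calm3, Camk2n1 and Camk2n2, in each line the 3 list genes with the largest difference among those past the threshold with average log2 CPM of at least 1, and the 5 (Camk2a) or 3 most similar genes; Ppp1ca, Ppp2ca, Ppp3ca, Cacna1c, Itpr2, Rbm20, Rbm9 and Sfrs1 were named after their values were seen. A gene that the rule also names is not reported here. Of the list of 51, Pcp4 and Sptbn4 were not analysed here, Hdac4 had 2 rows and was left out, and Camkv did not pass the filter. Of the other marker lists, 1 of 4 smooth muscle genes was lower in Mesp1Cre mutants, no epicardial, macrophage or skeletal muscle gene passed in any line, and no endothelial or smooth muscle gene in the other lines.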

Additional observations from a re-analysis of the deposited data

Results flagged for a closer look

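The measures of the 4 genes in the Mesp1Cre groups of 4 libraries (18 in all: CPM, shares and the sum) held no library that stood apart by Dixon's criterion, which would pick out about 1 in 20 groups by chance. Groups of 3 were not examined.

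Genotype differences that differed between lines by the interaction test were these. By the titles, Camk2a in Mef2cAHF::Cre exceeded Tnnt2::Cre by 2.36 (FDR = 5.55e-07) and Mesp1Cre by 2.01 (FDR = 2.18e-06), Camk2b exceeded Tnnt2::Cre by 1.97 (FDR = 0.0283), and Camk2d was below Mesp1Cre with a difference of -0.53 (FDR = 0.0209). By the column names, Camk2a was below Mesp1Cre with a difference of -0.75 (FDR = 0.0456). These differences are in log2 units from edgeR's quasi-likelihood test.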

How the results depend on the processing

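Left out in turn, the libraries gave these ranges of the log2 difference. In Mesp1Cre, Camk2b ran from -0.185 to 0.228. In Mef2cAHF::Cre, Camk2b ran from 1.1 to 1.67 and Camk2g from -0.0188 to 0.109. In Tnnt2::Cre, Camk2a ran from -1.06 to -0.922 (2 of 6 lost the call), Camk2d from 0.234 to 0.444 (1 of 6 passed) and Camk2g from -0.032 to 0.101. The share of Camk2b in Mesp1Cre ran from -0.1609 to 0.1381 percentage points, that of Camk2g in Tnnt2::Cre from -0.3019 to 0.786, and the summed CPM in Tnnt2::Cre from -8.226 to 24.65. In all, 72 of 80 log2 differences kept direction and side of the threshold. Of the shares and sums, which could not pass, 92 of 100 kept direction.

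With DESeq2, Camk2g in Mesp1Cre (-0.335), Camk2b in Mef2cAHF::Cre (1.31) and the Camk2g interaction of Mef2cAHF::Cre and Mesp1Cre (0.396) passed the threshold, and Camk2d between the controls of Mef2cAHF::Cre and Tnnt2::Cre became 0.0262. With all genes of at least 1 count kept, Camk2b in Mef2cAHF::Cre passed (1.31), Camk2g between Tnnt2::Cre and Mesp1Cre controls (-0.262) and Camk2b between Mef2cAHF::Cre and Tnnt2::Cre controls (-0.977) no longer did, and Camk2d in the latter was 0.0119. In the 6-group fit Camk2g in Mesp1Cre passed (-0.352). On log2(FPKM + 0.1), whose median over all genes was 0.152 in Mesp1Cre, 0.109 in Tnnt2::Cre and -0.112 in Mef2cAHF::Cre, Camk2a lost its call in Mesp1Cre (-0.472, FDR = 0.112) and Tnnt2::Cre (-0.852, FDR = 0.191), and Camk2g in Mef2cAHF::Cre was -0.0766. On log2(FPKM + 1) these were -0.43, -0.747 and -0.072. The cause was not tested. The logit of the Camk2b share in Mesp1Cre was -0.01413.

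By the column names, Mef2cAHF::Cre gave log2 differences of -1.38 for Camk2a, -1.31 for Camk2b, 0.0357 for Camk2d and -0.0546 for Camk2g, and share differences of -15.87, -0.5096, 13.6 and 2.778 percentage points in that order, with -54.35 for the summed CPM. Against Tnnt2::Cre the interactions were -0.399 for Camk2a, -0.645 for Camk2b and -0.0977 for Camk2g, and against Mesp1Cre -0.752, -1.39 and, for Camk2d, -0.461. Between controls, Camk2a was 0.282 and Camk2b 0.32 above Tnnt2::Cre.

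The deviations of same-numbered mutant and control libraries correlated at -0.0358 to 0.177. For some mutants the same-numbered control was the closest and for others not, so whether they were paired is not settled. With a replicate block no call of the 4 genes changed (Camk2a -0.632, 1.39 and -0.981 in Mesp1Cre, Mef2cAHF::Cre and Tnnt2::Cre; 1384, 517 and 28 genes called in all, against 1821, 482 and 50), and the Hrc call in Tnnt2::Cre was lost. DESeq2 size factors, a minimum of 10 counts in every library and leaving out hemoglobin and mitochondrial genes changed no call of the 4. FPKM shares and, an alternative chosen after seeing the data, shares per base of the longest transcript kept every direction, and none of them could pass. Over all tested genes DESeq2 called 2724, 1078 and 366, and without 1 library the calls ran from 1052 to 2161, 75 to 662 and 4 to 896. Camk2b, at 23 to 135 counts per library, is the member whose depth limits the comparison most.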
